A study of Mus musculus with 8 samples.

Results

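The growth arrest genes Gadd45a, Gadd45b and Gadd45g and the antiproliferative genes Btg1, Btg2, Btg3, Tob1 and Tob2 were followed in sorted multipotent progenitors (MPPs) from the bone marrow of mice. These 8 genes were chosen by name, with earlier results of the same libraries known, from the 37980 rows of the table. A value above 0 in any library was present in 17710 rows, and 11451 were tested. All 8 passed the filter on low values, a normalised count of at least 10 in at least 4 libraries.

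MPPs carrying the NUP98-HOXA10hd fusion (NA) were compared with wild-type (WT) MPPs, with 4 RNA-seq libraries in each group and 1000 sorted cells in each library. NA mice held 1 NA LSL/+ allele and Vav-Cre, a Cre transgene active in blood cells that removes the stop cassette in front of the fusion, while WT mice were C57BL/6. Both groups shared the C57BL/6 background and the sort, which took bone marrow cells negative for lineage markers, CD48 and CD150 and positive for c-kit, Sca1 and CD135. Age, the number of mice and whether WT mice carried Vav-Cre are not given in the labels, so p-values measure the spread between libraries, which may be technical.

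GADD45 proteins are small stress-induced adaptors that bind PCNA, the CDK1 and cyclin B complex and the MAP kinase kinase kinase MAP3K4, through which they act on p38 and JNK. BTG and TOB proteins share an APRO domain that binds the CNOT7 and CNOT8 deadenylases of the CCR4-NOT complex, and they speed the removal of poly(A) tails from messenger RNAs. Both families slow the cell cycle when expressed at high levels, several of their members are early-response genes, and Btg2 and Gadd45a are textbook targets of p53.

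The promoter windows of 5 of the 8 genes are shown here, to set the 3 Gadd45 genes beside each other and Btg1 beside Btg2. Each window runs from 250 bases before to 50 bases after the start of the RefSeq transcript (GRCm38.p6), 5′ to 3′ on the strand of the gene. Capitals mark matches to the NF-Y box CCAAT, the octamer ATGCAAAT, the cAMP response element TGACGTCA, the TATA box TATAAA and the E-box CACGTG, on either strand. The motifs were chosen after the sequences had been read, and no match overlaps another apart from palindromes matched on both strands. The windows are Gadd45a at chr6:67037358-67037657 on the minus strand, Gadd45b at chr10:80929841-80930140 on the plus strand, Gadd45g at chr13:51846425-51846724 on the plus strand, Btg1 at chr10:96616751-96617050 on the plus strand and Btg2 at chr1:134079106-134079405 on the minus strand.
Gadd45a: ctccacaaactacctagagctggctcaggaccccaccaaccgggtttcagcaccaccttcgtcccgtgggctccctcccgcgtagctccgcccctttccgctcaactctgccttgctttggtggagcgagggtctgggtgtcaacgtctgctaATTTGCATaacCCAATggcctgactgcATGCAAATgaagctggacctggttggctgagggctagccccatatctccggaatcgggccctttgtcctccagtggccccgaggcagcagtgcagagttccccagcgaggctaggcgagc
Gadd45b: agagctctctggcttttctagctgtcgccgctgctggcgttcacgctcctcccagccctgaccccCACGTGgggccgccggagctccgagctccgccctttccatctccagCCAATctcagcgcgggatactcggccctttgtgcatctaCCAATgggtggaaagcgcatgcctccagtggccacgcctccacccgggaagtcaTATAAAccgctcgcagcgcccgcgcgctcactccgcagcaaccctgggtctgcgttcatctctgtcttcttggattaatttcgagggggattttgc
Gadd45g: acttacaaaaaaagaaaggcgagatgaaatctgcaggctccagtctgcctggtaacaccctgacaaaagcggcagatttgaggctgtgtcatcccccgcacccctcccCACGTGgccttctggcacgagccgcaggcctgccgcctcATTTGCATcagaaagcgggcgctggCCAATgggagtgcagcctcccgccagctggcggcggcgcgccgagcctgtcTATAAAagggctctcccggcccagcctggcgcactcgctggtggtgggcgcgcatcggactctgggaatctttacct
Btg1: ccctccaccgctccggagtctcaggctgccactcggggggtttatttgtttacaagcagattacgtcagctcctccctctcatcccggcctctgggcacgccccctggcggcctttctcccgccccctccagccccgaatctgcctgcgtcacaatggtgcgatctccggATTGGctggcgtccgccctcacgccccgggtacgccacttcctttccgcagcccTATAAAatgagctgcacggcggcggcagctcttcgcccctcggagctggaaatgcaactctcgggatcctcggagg
Btg2: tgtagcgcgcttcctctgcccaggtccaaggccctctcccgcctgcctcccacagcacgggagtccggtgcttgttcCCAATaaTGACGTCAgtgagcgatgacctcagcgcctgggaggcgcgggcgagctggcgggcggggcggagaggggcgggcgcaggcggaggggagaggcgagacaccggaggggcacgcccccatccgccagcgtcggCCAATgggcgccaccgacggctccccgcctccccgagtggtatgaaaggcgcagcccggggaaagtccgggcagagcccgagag

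The Gadd45a window held 2 octamers, with first bases at -97 and -70 from the start, on either side of a CCAAT at -86. An octamer was present in 1.74% of 32851 RefSeq windows of this length. Gadd45g held 1 octamer at -103, and Gadd45b held none. Gadd45b and Gadd45g both held a TATAAA, at -46 and -27, and a CACGTG, at -185 and -142, whereas Gadd45a held neither. TATAAA was in 13.6% and CACGTG in 7.15% of all windows. The Btg2 window held a palindromic TGACGTCA at -166, a motif found in 1.79% of windows, next to a CCAAT at -173. Btg1 held TATAAA at -26 and an inverted CCAAT at -80. CCAAT itself was in 37.4% of all windows and in 8 of the 9 windows of the 8 genes, Tob2 being the exception. Neither the AP-1 site TGANTCA, present in 7.81% of all windows, nor the CArG box, present in 1.63%, had a match in any of the 9 windows. A match describes letters and does not show a bound site.

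The deposited values were taken as normalised counts, in which 1 read was worth 0.888 to 1.18 units, and the estimated depth was 3876903 to 4916971 reads per library. Hoxa10 was higher in NA libraries, at 324 ± 32.0 against 139 ± 7.997 (SD, n = 4 each). The fusion carries the HOXA10 homeodomain, so its reads may be counted to Hoxa10, and their part in this difference was not tested. Xist was 869 to 1285 in WT and 0.940 to 2.80 in NA libraries, and the Y-linked Eif2s3y was 516 to 666 in NA and at most 0.888 in WT libraries, so the sex of the donors and the genotype cannot be told apart in any result here. Of the genes behind the gate, Kit was at 1362 ± 111 in NA and 1197 ± 107 in WT, Flt3 at 1442 ± 45.4 and 1374 ± 68.0, and neither passed. The Sca1 gene Ly6a fell by 0.28 on the log2 scale in NA (limma, adjusted p = 0.0257), and Cd48 was at 17.7 ± 5.36 in NA and 56.1 ± 21.3 in WT (adjusted p = 0.00711). Neither passed without the fourth libraries described next (adjusted p = 0.160 for Ly6a and 0.0656 for Cd48), and Ly6a passed in 13 of 21 settings, not among them the one without WT1. The fourth library of each group lay unusually close to a weighted sum of the other 3 libraries of its group. The SD of the log2 residuals was 0.128 in WT4 and 0.192 in NA4, against 0.236 to 0.338 in the other 6 libraries, so results are also given without the fourth libraries. Whether the fourth libraries are independent of the others was not tested. If they are not, the SDs and p-values at n = 4 are too small.

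Between the groups, 2053 of the 11451 genes tested differed at an adjusted p under 0.05 by limma on log2(normalised count + 1), or 17.9%. Of these, 1152 were higher in NA MPPs (10.1% of genes tested) and 901 were lower (7.87%). The higher genes made up 56.1% of calls with the deposited scaling and 41.3% of 2239 calls when libraries were scaled to equal totals. In the same comparison 6 of the 8 Gadd45, Btg and Tob genes were past the threshold, all higher in NA, and Gadd45g and Btg3 were not. The NA mean was above the WT mean for all 8. Since the genes were chosen with this contrast known, these counts and the values below are a description, and nothing is read from their distance to the background. The median log2 difference of the 8 genes was 0.96, and that of all genes tested was -0.01.

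Gadd45a, at 6:67035096-67037457 on the minus strand of GRCm38 with 4 exons, encodes the p53-inducible member of the GADD45 family. Its normalised count was 15.1, 12.5, 31.9 and 22.2 in WT1 to WT4 and 137, 167, 138 and 168 in NA1 to NA4. All NA libraries were far above all WT libraries, and the lowest NA value exceeded the highest WT value several-fold. The mean was 152 ± 17.4 in NA and 20.4 ± 8.68 in WT (SD, n = 4), a ratio of means of 7.47 and a log2 difference of 2.92 (SE 0.28). Gadd45a had the largest difference of the 8 genes, and its difference was 2.94 without the fourth libraries.

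Gadd45a shares 337 exon bases with E230016M11Rik, a noncoding gene on the opposite strand. Libraries prepared from amplified cDNA with Nextera XT do not keep strand. E230016M11Rik stood at 24.9 to 56.0 in NA and at 23.1 to 64.9 in WT libraries. Its groups overlapped. Reads of the shared bases cannot be told apart by strand, and their part in the Gadd45a values was not tested.

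Gadd45b, at 10:80930073-80932204 on the plus strand with 4 exons, is the member best known as a TGF-beta and NF-kB target. It was at 69.2, 43.0, 91.1 and 53.3 in WT1 to WT4 and at 105, 116, 242 and 107 in NA1 to NA4. The groups did not overlap, although WT3 came close to NA1, and NA3 stood well above the other NA libraries. The mean was 143 ± 66.3 in NA and 64.2 ± 20.9 in WT, with a ratio of 2.22 and a log2 difference of 1.10 (SE 0.29). The difference was 1.13 without the fourth libraries and no longer past the threshold. Without NA3 it was 0.82 and past it, and without both NA3 and WT1 it was 0.87 and not past it.

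Gadd45g, at 13:51846678-51848468 on the plus strand with 4 exons, is the cytokine-responsive member. It was the lowest of the family, at 9.77, 6.79, 10.2 and 14.2 in WT1 to WT4 and at 8.40, 7.52, 26.8 and 12.99 in NA1 to NA4. The groups overlapped throughout, and NA3 alone was above every WT library. The log2 difference was 0.28 (SE 0.50), so at values of about 10 reads neither a difference nor its absence can be read.

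Btg1, at 10:96617006-96622809 on the plus strand with 2 exons, was first found at a translocation in lymphoid leukaemia. Its normalised count was 892, 1608, 1481 and 1275 in WT1 to WT4 and 1933, 2244, 2517 and 2421 in NA1 to NA4. Every NA library was above every WT library, with WT1 the lowest of all. The mean was 2279 ± 257 in NA and 1314 ± 313 in WT, a ratio of 1.73 and a log2 difference of 0.82 (SE 0.15). The difference was 0.79 and still past the threshold without the fourth libraries. Btg1-ps1, a pseudogene named as a copy of Btg1, was listed at 0 in every library.

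Btg2, at 1:134075170-134079120 on the minus strand with 2 exons, is an early-response and p53-inducible gene. It was at 209, 1387, 1011 and 771 in WT1 to WT4 and at 1323, 2003, 2907 and 1946 in NA1 to NA4. The groups overlapped, since WT2 was above NA1, and WT1 was far below every other library. The mean was 2045 ± 652 in NA and 844 ± 494 in WT, with a ratio of 2.42 and a log2 difference of 1.51 (SE 0.42). WT1 decided much of this size: without WT1 the difference was 0.94, still past the threshold. The call was lost without NA2 (1.503), without NA3 (1.32), without NA4 (1.52) and without the fourth libraries (1.57), and it was kept without NA3 and WT1 together (0.75).

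Btg3, at 16:78332637-78377192 on the minus strand with 4 exons, encodes a protein that binds E2F1 and CHK1. It was at 34.6, 81.5, 45.5 and 51.5 in WT1 to WT4 and at 45.7, 77.1, 67.4 and 69.7 in NA1 to NA4. The highest value of all was in WT2, and the groups overlapped. The means were 65.0 ± 13.5 in NA and 53.3 ± 20.1 in WT, and the log2 difference was 0.32 (SE 0.28). Btg3 shares 695 exon bases with Cxadr on the opposite strand, which stood at 3.76 to 31.9. Reads of the bases shared by this pair cannot be told apart by strand either.

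Tob1, at 11:94211454-94215495 on the plus strand with 2 exons, binds SMAD proteins and holds T cells in quiescence. Its normalised count was 59.5, 56.6, 60.3 and 66.6 in WT1 to WT4 and 92.4, 163, 189 and 156 in NA1 to NA4. The WT libraries were close together, and every NA library was above them, NA1 by the least. The mean was 150 ± 41.0 in NA and 60.8 ± 4.198 in WT, a ratio of 2.47 and a log2 difference of 1.25 (SE 0.22). It was 1.26 without the fourth libraries, and past the threshold.

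Tob2, at 15:81848272-81858796 on the minus strand with 2 exons, is the closest relative of Tob1. It was at 176, 301, 269 and 210 in WT1 to WT4 and at 344, 398, 445 and 360 in NA1 to NA4. The groups did not overlap. The mean was 387 ± 44.7 in NA and 239 ± 56.5 in WT, with a ratio of 1.62 and a log2 difference of 0.72 (SE 0.16). The difference was 0.70 without the fourth libraries and not past the threshold. Tob2 shares 289 exon bases with Gm49476 on the opposite strand, a gene not analysed here.

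**Figure D1:**
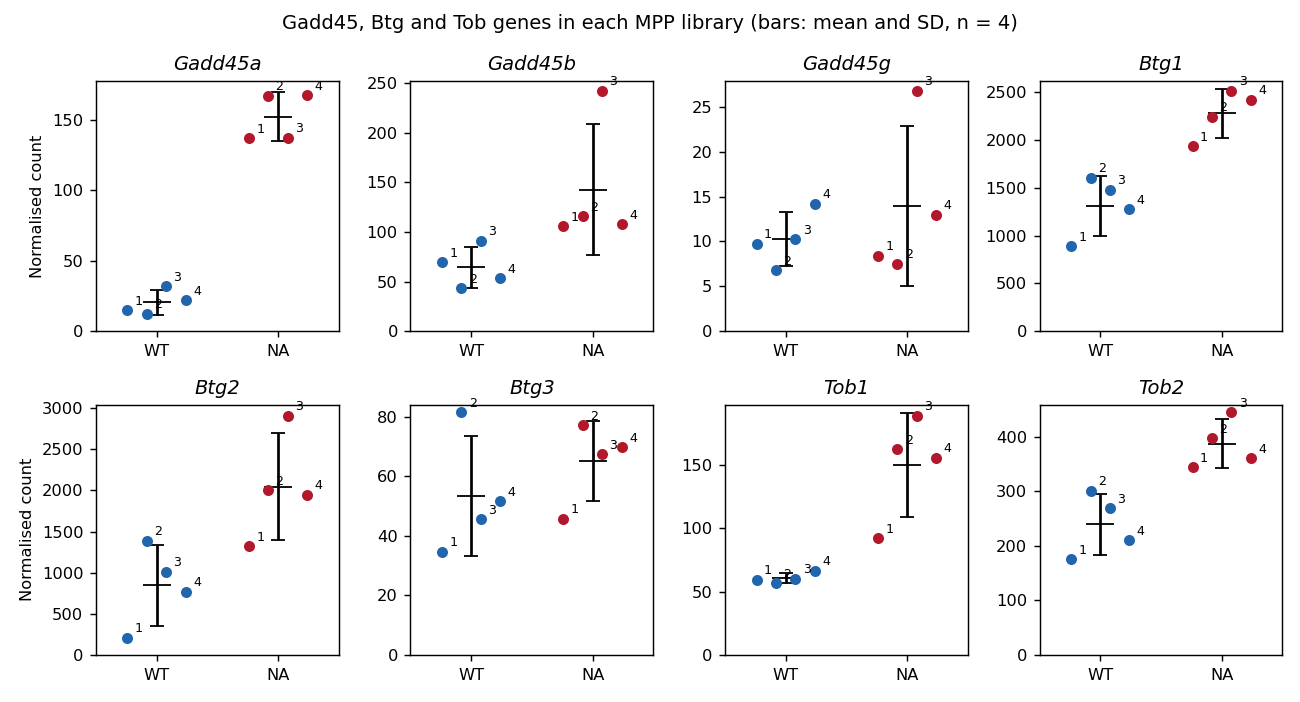
Normalised count (vertical axis, from 0, a separate scale for each gene) of the 8 genes in each WT (blue) and NA (red) MPP library; points are libraries, labelled by number, and bars are the mean and SD (n = 4). Gadd45a, Gadd45b, Btg1, Tob1 and Tob2 show no overlap between groups, WT1 is far below the other WT libraries in Btg2, and NA3 is far above the other NA libraries in Gadd45b.

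Across the 8 genes, all NA libraries lay above all WT libraries in 5, a pattern found in 1314 of the genes tested (11.5%), and the groups overlapped in 3. A log2 difference of at least 1 past the threshold was seen in Gadd45a, Gadd45b, Btg2 and Tob1, against 335 of the genes tested (2.93%). Without the fourth libraries, 3 of the 8 (Gadd45a, Btg1 and Tob1) stayed past the threshold, beside 370 of the 11117 genes then tested (3.33%) that were higher in NA. Gadd45g was below the filter in that comparison, which still required 4 libraries. Under 21 alternative settings of the analysis the difference stayed positive wherever a gene was tested. Gadd45a, Btg1 and Tob1 were past the threshold in 21 of 21 settings, Tob2 in 20, Gadd45b in 16, Btg2 in 15, and Btg3 in none, while Gadd45g was past it in none of 14. In these bulk libraries, a larger share of cells with a transcript and more transcript per cell cannot be told apart.

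**Figure D2:**
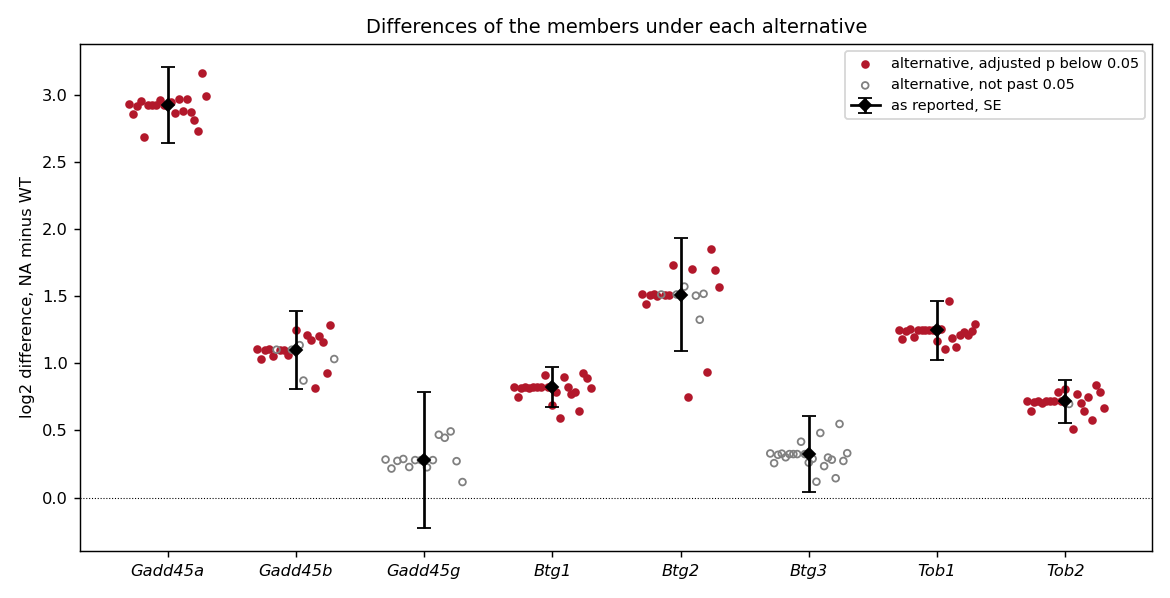
Log2 difference between NA and WT MPPs (vertical axis) of each gene as reported (black diamonds with the SE) and under each alternative setting (circles, filled where the adjusted p was under 0.05). Values of Gadd45a lay between 2.69 and 3.16 and those of Btg2 between 0.75 and 1.85, and no value of any of the 8 genes was below 0.

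The spread between libraries also differed among the genes. The coefficient of variation in WT libraries was 6.91% for Tob1, the lowest, and 58.5% for Btg2, the highest. In NA libraries it was 11.3% for Btg1, 11.4% for Gadd45a and 11.6% for Tob2, but 46.5% for Gadd45b and 63.9% for Gadd45g. Relative to its mean, Gadd45a therefore varied less in NA than in WT libraries (42.6%), and Tob1 varied more (27.3% in NA). The SD of Gadd45a was larger in NA, at 17.4 against 8.68 in WT, with means of 152 and 20.4. Sampling of few reads also raises this coefficient, which bears most on Gadd45g and on Gadd45a in WT. The part of level and depth in these spreads was not tested.

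To compare levels between genes, normalised counts were divided by the joined exon length in kilobases. In WT MPPs the order of levels per kilobase was Btg2 (308 ± 180), Btg1 (249 ± 59.3), Gadd45b (40.4 ± 13.2), Tob2 (35.9 ± 8.48), Tob1 (26.6 ± 1.83), Btg3 (13.3 ± 5.003), Gadd45a (11.6 ± 4.92) and Gadd45g (8.74 ± 2.60). Among neighbours in this order, Btg1 was above Gadd45b and Tob1 above Btg3 by more than their SDs, while the ranges of mean ± SD overlapped for all other neighbours. In NA MPPs the order was Btg2 (746 ± 238), Btg1 (432 ± 48.6), Gadd45b (89.8 ± 41.7), Gadd45a (86.4 ± 9.86), Tob1 (65.6 ± 17.9), Tob2 (58.0 ± 6.71), Btg3 (16.2 ± 3.36) and Gadd45g (11.9 ± 7.59). Gadd45a thus stood in place 7 in WT and in place 4 in NA, where its range of mean ± SD overlapped those of Gadd45b and Tob1. The NA ranges also overlapped for Tob1 and Tob2 and for Btg3 and Gadd45g, and other neighbours were apart. With the length of the longest transcript in place of the joined exons, Gadd45a was at 16.7 and Tob2 at 57.6 in WT, Tob2 moved ahead of Gadd45b there, and in NA Gadd45a moved ahead of Gadd45b and Tob2, at 93.2 ± 10.8, ahead of Tob1.

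The makeup of each family is described here with no test, since it rests on the same contrast. Gadd45b supplied 66.4% ± 6.19 of the summed Gadd45 level per kilobase in WT and 46.2% ± 9.53 in NA libraries (SD, n = 4). Gadd45a supplied 14.2% to 21.6% in WT and 30.8% to 54.7% in NA libraries, with means of 18.7% and 47.9%, and the groups did not overlap. NA3, with its high Gadd45b, had the lowest Gadd45a share of the NA libraries. The Gadd45g share was 14.9% ± 4.35 in WT and 5.95% ± 2.33 in NA. The summed level was 60.7 ± 18.1 in WT and 188 ± 44.6 in NA. The mean Gadd45a share without the fourth libraries was 17.8% in WT and 45.6% in NA.

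Btg2 supplied 44.7% ± 13.7 of the summed level per kilobase in WT and 55.8% ± 4.84 in NA, and Btg1 supplied 42.1% ± 9.23 and 33.5% ± 4.41. WT1 stood apart, with 24.8% from Btg2 and 55.2% from Btg1. Tob1 supplied 4.94% in both groups, with a range of 2.75% to 8.49% in WT and 4.24% to 5.44% in NA. The summed level was 633 ± 251 in WT and 1317 ± 307 in NA.

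**Figure D3:**
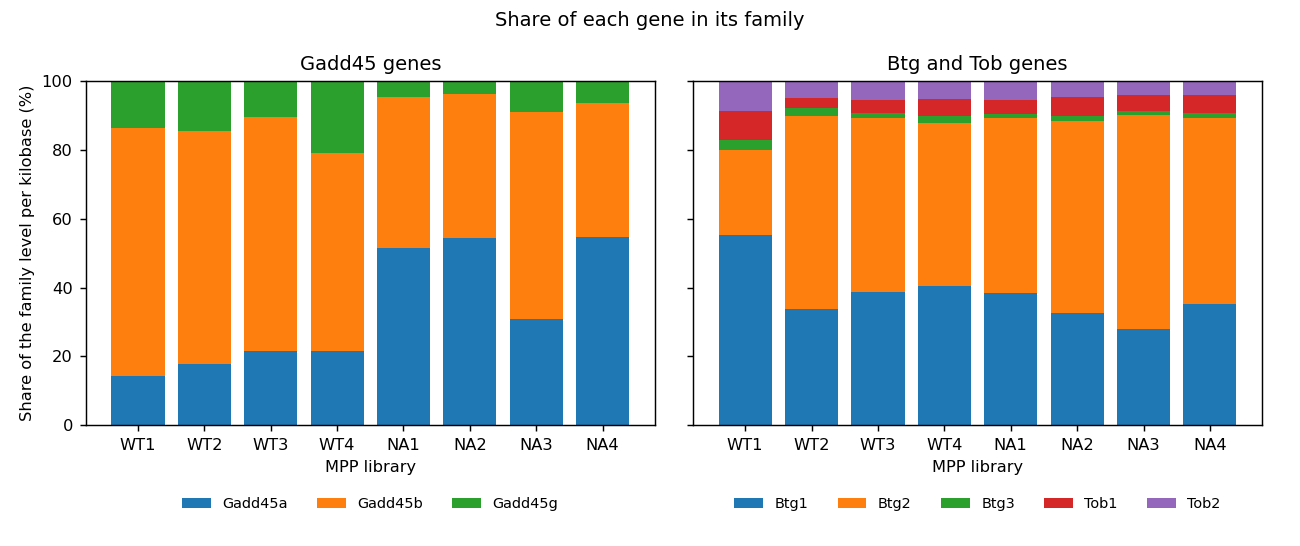
Share of each gene in the summed level per kilobase of the Gadd45 genes (left) and of the Btg and Tob genes (right), in percent (vertical axis), for each WT and NA MPP library. Gadd45a takes 14.2% to 21.6% of the Gadd45 level in WT libraries and 30.8% to 54.7% in NA libraries, and Btg1 and Btg2 together fill most of the Btg and Tob level in every library.

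Genes of the proteins that GADD45 proteins bind or act through were examined next. Of 16 tested partners, 1 rose and none fell, beside 10.1% of all genes tested that rose and 7.87% that fell, and the median log2 difference was 0.12. At an unadjusted p under 0.05, 1 partner was lower, beside 15.6% of all genes tested, and 16.9% of all genes were higher. With libraries scaled to equal totals 1 partner rose and 1 fell. The one that rose was Mapk8, which encodes JNK1, with 411 ± 54.2 in NA and 284 ± 30.9 in WT and a log2 difference of 0.53 (limma, adjusted p = 0.0113). With the fourth libraries left out, no partner passed by limma, and 1 was higher and 1 lower at an unadjusted p under 0.05, beside 10.9% and 9.14% of all genes then tested. Cdkn1a, the p21 inhibitor of cyclin-dependent kinases, had the highest difference of the list at 1.27 (SE 0.64, adjusted p = 0.186), and Map2k4, a JNK kinase, the lowest at -0.42 (SE 0.15, adjusted p = 0.0715). Map3k4, the kinase that GADD45 proteins activate, was at 94.3 ± 20.03 in NA and 110 ± 7.52 in WT (adjusted p = 0.389), and Pcna was at 1455 ± 133 and 1293 ± 87.9 (adjusted p = 0.201).

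Of 17 tested regulators of Gadd45 genes, 4 rose and none fell, beside 10.1% and 7.87% of all genes tested, and the median log2 difference was 0.21. At an unadjusted p under 0.05, 7 were higher and 2 lower, beside 16.9% and 15.6% of all genes. Egr1, an immediate-early transcription factor, rose from 904 ± 293 in WT to 5419 ± 638 in NA (log2 difference 2.64, SE 0.19, adjusted p = 7.00e-07). Smad4, the common SMAD of TGF-beta signalling, rose by 1.63 (adjusted p = 0.000253). Myc, which represses Gadd45a, rose by 1.04 (adjusted p = 0.00185), and the FoxO factor Foxo3 by 0.40 (adjusted p = 0.00972). Brca1 had the lowest difference, at -0.50 (adjusted p = 0.457). Trp53, which encodes p53, had the highest, at 3.46 (SE 1.18), but did not pass (adjusted p = 0.0556). It was at 534, 359, 412 and 390 in NA1 to NA4 and at 70.1, 271, 0 and 110 in WT1 to WT4. The groups did not overlap, and WT3 was listed at 0. That 0 enlarges both the difference on the log2 scale and its SE, and the ratio of means was 3.76. The missing call therefore does not show that Trp53 was unchanged. With the fourth libraries left out, 3 regulators rose and none fell. Some settings gave a fall: 7 regulators rose and 1 fell without WT3, 5 rose and 1 fell without NA3 or with the GC trend removed, and 4 rose and 2 fell with libraries scaled to equal totals. Pou2f1, which encodes an octamer-binding protein, was at 322 ± 45.4 in NA and 244 ± 41.9 in WT (adjusted p = 0.0730), and the NF-Y subunit genes Nfya, Nfyb and Nfyc passed no test.

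The CCR4-NOT deadenylase, to which BTG and TOB proteins bind, had 1 subunit that rose and 1 that fell among 10 tested, with a median of 0.05, beside 10.1% of all genes tested that rose and 7.87% that fell. Cnot9 rose by 0.48 (adjusted p = 0.0290), a call that held in 10 and was lost in 11 of the 21 alternative settings, and Cnot10 fell by 0.73 (adjusted p = 0.00333). The catalytic subunits that contact the APRO domain did not pass. Cnot7 was at 588 ± 66.4 in NA and 690 ± 45.2 in WT (adjusted p = 0.131), and Cnot8 at 827 ± 36.1 and 766 ± 46.6 (adjusted p = 0.382). Cnot3 had the lowest difference, -0.75 (SE 0.38), from values of 22.2 ± 11.1 and 35.1 ± 6.97. No subunit passed by limma without the fourth libraries, where 1 was higher and 1 lower at an unadjusted p under 0.05, beside 10.9% and 9.14% of all genes.

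Of 10 other tested partners of BTG and TOB proteins, 3 rose and none fell, beside 10.1% and 7.87% of all genes tested, with a median of 0.17. At an unadjusted p under 0.05, 1 was lower, beside 15.6% of all genes, and with libraries scaled to equal totals 3 rose and 1 fell. Smad1, which TOB proteins bind, rose by 1.04 (adjusted p = 0.00170), from 156 ± 25.6 to 326 ± 77.3. Pan3, the adaptor subunit of the PAN2-PAN3 deadenylase, rose by 0.64 (adjusted p = 0.00634), and Pabpc4, a poly(A)-binding protein gene, by 0.48 (adjusted p = 0.0173). E2f1, whose product Btg3 binds, had the lowest difference, at -0.95 (SE 0.34, adjusted p = 0.0676). Hoxb9 and Smad9 were listed at 0 in all libraries. Of the 10, 1 rose without the fourth libraries, and 1 without the variance trend.

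**Figure D4:**
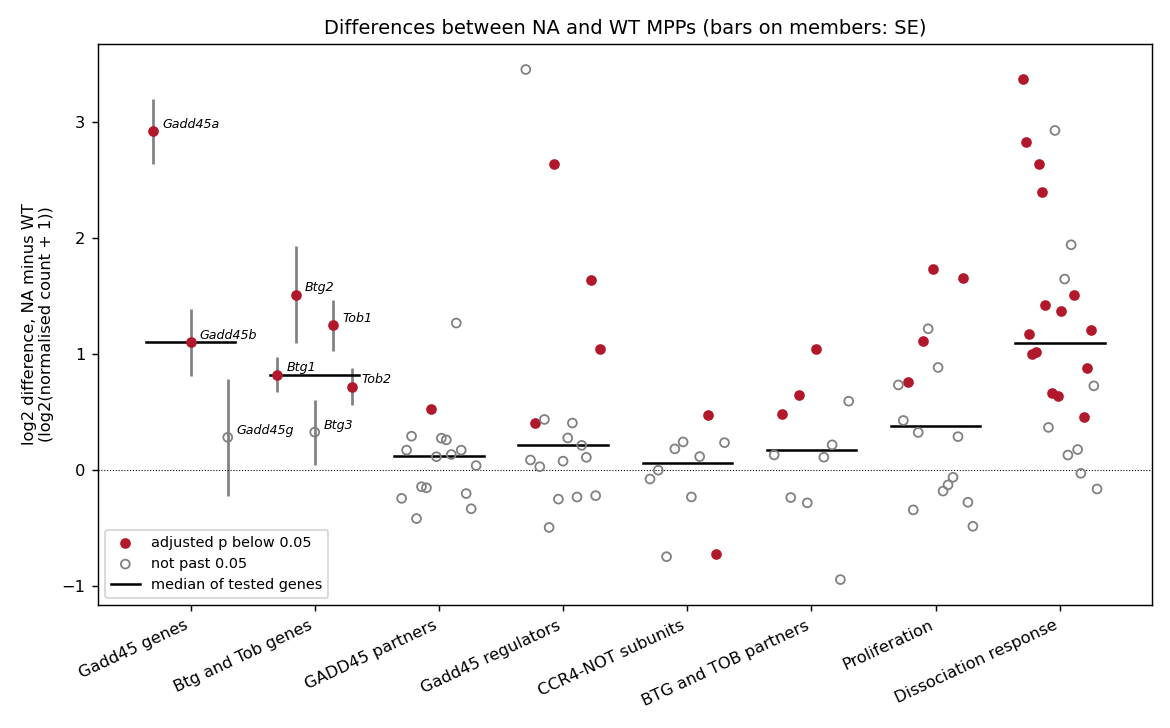
Log2 difference between NA and WT MPPs (vertical axis, on log2(normalised count + 1)) of the Gadd45, Btg and Tob genes, with SE bars, and of the genes of 6 related lists; filled circles are genes with an adjusted p under 0.05 by limma and black lines are medians of the tested genes. The dissociation response list has a median of 1.09, above those of the 4 partner and regulator lists, which lie between 0.05 and 0.21.

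Genes of proliferating cells were set beside these antiproliferative genes. Of 16 tested, 4 rose and none fell, beside 10.1% and 7.87% of all genes tested, with a median of 0.37. None was lower at an unadjusted p under 0.05, beside 15.6% of all genes. Aurkb, a mitotic kinase gene, rose by 1.73 (adjusted p = 0.00451), from 29.8 ± 14.6 to 93.1 ± 22.4. Rrm2, a subunit of ribonucleotide reductase, rose by 1.65 (adjusted p = 0.00566), Plk1 by 1.11 (adjusted p = 0.0406) and the cyclin gene Ccna2 by 0.76 (adjusted p = 0.00946). Mki67 was at 109 ± 19.9 in NA and 68.2 ± 23.8 in WT (adjusted p = 0.0803), the replication genes Mcm2, Mcm5 and Mcm6 passed no test, and Ccne2 had the lowest difference, at -0.49 (adjusted p = 0.394). No gene of the list passed by limma without the fourth libraries, where 5 were higher at an unadjusted p under 0.05, beside 10.9% of all genes, and 2 passed with a mean of at least 50 as the filter.

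Genes that rise when tissue is dissociated and cells are sorted, among them immediate-early genes like Btg2, were set beside the Gadd45, Btg and Tob genes. Of 24 tested, 15 rose and none fell, beside 10.1% and 7.87% of all genes tested, with a median of 1.09. None was lower at an unadjusted p under 0.05, beside 15.6% of all genes. The number that rose was 9 with no low-value filter and 8 without the variance trend, and without NA3 and WT1 12 rose and 1 fell. Their summed normalised count was 56483 to 65136 in NA and 16132 to 32755 in WT libraries. Fos rose by 3.37 (SE 0.31, adjusted p = 7.46e-06), Egr1 as given above, and Dusp1 by 1.37 (adjusted p = 7.28e-05). Without the fourth libraries 8 of the 24 rose, and without WT1 13 of 24 rose, with a median of 0.85. The Hspa1a and Hspa1b heat shock genes were at most near 0 and were not tested.

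The order of libraries within each group was compared between both sets. WT1 was the lowest of the WT libraries in 4 of the 8 genes, in 21 of the 24 dissociation response genes (87.5%) and in 27.6% of all genes tested, and WT2 was the lowest in the other members, Gadd45a, Gadd45b, Gadd45g and Tob1. WT2 was the highest WT library in 4 of the 8, in 12 of the 24 and in 32.2% of all genes. NA3 was the highest NA library in 6 of the 8, in 16 of the 24 (66.7%) and in 30.5% of all genes. NA1 was the lowest NA library in 7 of the 8 (87.5%), in 14 of the 24 (58.3%) and in 29.2% of all genes. The part of handling or sorting in the differences of the Gadd45, Btg and Tob genes was not tested.

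**Figure D5:**
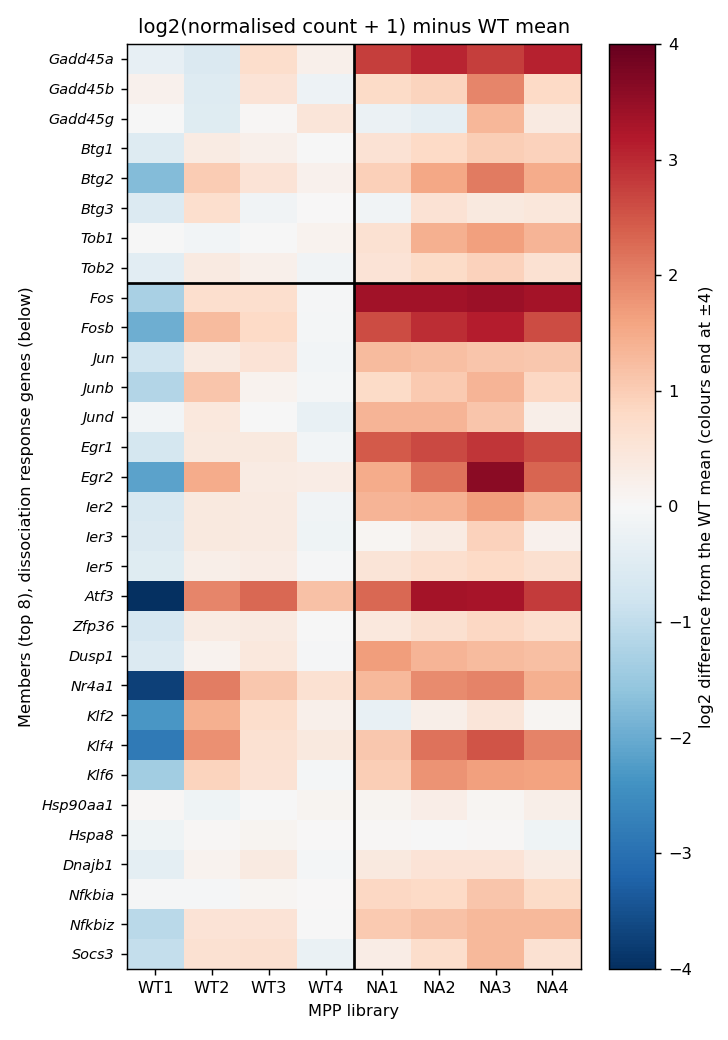
Difference of log2(normalised count + 1) from the WT mean (colour, ending at 4 in either direction) of the 8 Gadd45, Btg and Tob genes (top) and the dissociation response genes reported here (bottom, 1 of those tested left out) in each MPP library. WT1 is the lowest WT library in 21 of the 24 dissociation response genes, and Gadd45a is high in all 4 NA libraries.

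The genes with the nearest pattern were found for the 4 genes past the threshold with a difference of at least 1, by the root mean square difference of log2 values centred over the 8 libraries. The nearest genes are the smallest of all distances by construction, so their small size is not a result. The centring spans both groups, which favours genes with a similar difference between NA and WT. The list is therefore a description, and no shared regulation is read from it. The nearest to Btg2 were Cebpb (0.159) and Klf6 (0.237), with log2 differences of 1.54 and 1.51. Klf6 is itself in the dissociation response list, and it was at 2125 ± 471 in NA and 852 ± 467 in WT. The nearest to Gadd45a were Mov10 (0.255), with 69.5 ± 6.03 and 12.1 ± 5.90, and Rsl24d1 (0.359). The nearest to Gadd45b were Foxn2 (0.234) and Ddx23 (0.262), and those to Tob1 were Tsc22d2 (0.162) and Rnf125 (0.169).

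Markers of other cells were checked beside these results, although the lineage antibodies (the T cell antigens CD2, CD3e, CD4 and CD8a, the B cell antigen B220, the erythroid antigen Ter119 and the myeloid antigens Gr1 and Mac1) would remove most mature T, B, erythroid and myeloid cells in the sort. The T cell genes Cd3e, Cd3d and Cd3g and the neutrophil gene Elane were listed at 0 in every library. Summed over the 6 T cell markers, the level was 113 to 200 in NA and 183 to 302 in WT, nearly all of it from Lck, which fell by 0.64 (adjusted p = 0.0370). Of 6 B cell markers, 1 was tested and did not pass (-0.49), and the sum was 101 to 239 in NA and 182 to 269 in WT libraries. Of 4 tested neutrophil markers, 2 were past the threshold, Mpo, which fell by 1.498 (adjusted p = 0.0422), and Prtn3, which fell by 0.41 (adjusted p = 0.0181). The sum was 1390 to 1709 in NA and 1750 to 2589 in WT. Most of it came from Prtn3, at 1523 ± 154 in NA and 2028 ± 292 in WT. The other 2 neutrophil markers tested did not pass, S100a9 with a log2 difference of -2.90 (limma, adjusted p = 0.0545) and Ngp with -0.43 (adjusted p = 0.794). S100a9 was at 10.7, 7.93, 158 and 47.9 in WT1 to WT4 and at 0 to 18.5 in NA. Ngp was at 10.7, 0, 53.5 and 17.8 in WT1 to WT4 and at 2.77 to 13.1 in NA. Of the 2 monocyte markers tested, Irf8 was past the threshold and fell by 1.06 (adjusted p = 0.0335). The other, Ms4a6c, was higher in NA by 0.65 and did not pass (limma, adjusted p = 0.192). It stood at 65.9 ± 10.3 in NA and 45.3 ± 20.3 in WT. The sum over the monocyte markers was 84.0 to 96.8 in NA and 106 to 134 in WT. None of 5 tested megakaryocyte markers passed by limma, nor at an unadjusted p under 0.05, with sums of 206 to 288 in NA and 216 to 290 in WT. No erythroid marker was tested, at sums of 4.62 to 8.46 in NA and 15.9 to 111 in WT, and the 1 tested mast cell and basophil marker did not pass, at sums of 7.39 to 15.9 and 1.14 to 19.5. Of 6 long-term stem cell markers 2 rose, Hlf by 0.93 (adjusted p = 1.86e-06) and Procr by 0.42 (adjusted p = 0.00615), and the sum was 7816 to 8915 in NA and 5870 to 5996 in WT. Without the fourth libraries Lck, Mpo, Prtn3, Irf8 and Procr did not pass (adjusted p = 0.241, 0.135, 0.0867, 0.182 and 0.0759), and Hlf did. In the alternative settings where each was tested, Lck passed in 10 of 21, Mpo in 9 of 20 and Prtn3 in 13 of 21. Irf8 passed in 12 of 20, Procr in 20 of 21 and Hlf in 21 of 21. The part of cell makeup in the differences of the Gadd45, Btg and Tob genes was not tested.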

How the data were processed

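The authors sorted MPPs, amplified cDNA from 1000 cells per library, prepared libraries with Nextera XT and sequenced them on an Illumina NextSeq. The submitters' processing notes name bcl2fastq, RSEM, DESeq2 and mm10. Versions, annotation and the strand setting of the counting are not given in the sources used here. The deposited table is signal, and its name calls the values RSEM raw counts. Within each library, however, low values moved in steps other than 1. They were therefore taken as RSEM counts divided by a library factor, that is, normalised counts and not raw reads. In each library 98.4% to 98.9% of low values were whole multiples of 1 step within 0.05, which gave the depth estimates. RSEM fractions remained, so no count test was run. Depth sets the floor: a normalised count near 1 is about 1 read, and amplified cDNA reads are not independent molecules.

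Of 37980 rows, 32916 were matched to a symbol in GENCODE M21 (GRCm38), including 93.8% of rows above 0, and no sample column was left unmapped. Genes with at least 10 in at least 4 libraries were tested with limma 3.58.1 (R 4.3.3) on log2(value + 1), with a mean-variance trend, NA against WT without a replicate block, and Benjamini-Hochberg adjustment over all genes tested with a threshold of 0.05. The fold on this scale understates the change of low genes, while a 0 in 1 library of a higher gene can enlarge it, as in Trp53. Scripts were tested on simulated data. The 8 genes and the lists (GADD45 partners, Gadd45 regulators, CCR4-NOT, BTG and TOB partners, proliferation, dissociation response, gate and other cell markers, sex-linked genes) were chosen with earlier results of these data known. In the dissociation response list, 1 gene is counted but not reported here, so the lowest of that list is not named. Genes named were the 8, every gene of the pathway lists past the threshold, the highest and lowest of each list, and the 2 nearest genes of each of the 8 past the threshold with a difference of at least 1. A few others (Map3k4, Pcna, Pou2f1, the Nfy, Mcm, Cnot7 and Cnot8 genes and Mki67) were named after their values were seen. Promoter windows were from RefSeq (GRCm38.p6), which held 9 windows for the 8 genes.

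Alternatives were other scalings, pseudocounts, filters, covariates and libraries left out. The same replicate number did not mark a shared animal or batch in the labels, and the correlation of deviations between same-numbered libraries was 0.0874, 0.0271, 0.0131 and 0.158, so libraries were not treated as pairs.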

Additional observations from a re-analysis of the deposited data

Results flagged for a closer look

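Values of the 8 genes, of list sums and of library depth were checked for a library far from the other 3 of its group, over 20 groups of 4 values, of which chance alone would pick out about 1 in 20. Gadd45b in NA3 was 242, with the other NA libraries at 105 to 116, and the gap to the nearest of them was 0.926 of the range of the group. The estimated depth of NA4 was 3887850 reads, with the other NA libraries at 4909410 to 4916970.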

How the results depend on the processing

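The count of genes past the threshold was 515 without the fourth libraries of both groups and 1106 to 2141 when 1 library was left out. Without the fourth libraries 3 of the 8 genes and 4 genes of the pathway lists passed, and when 1 library was left out 5 to 6 and 12 to 17 did. Gadd45b no longer passed with no low-value filter (1.10), without the variance trend (1.10), without the fourth libraries (1.13) and without NA3 and WT1 (0.87), an alternative chosen after seeing the data. Btg2 no longer passed with no filter (1.51), without the trend (1.51) and without the fourth libraries (1.57), and Tob2 without the fourth libraries (0.70). The cause was not tested. With 1 library left out, the log2 difference was 2.73 to 3.16 for Gadd45a, 0.82 to 1.29 for Gadd45b, 0.12 to 0.49 for Gadd45g, 0.65 to 0.93 for Btg1, 0.94 to 1.85 for Btg2, 0.14 to 0.55 for Btg3, 1.12 to 1.46 for Tob1 and 0.58 to 0.84 for Tob2. Gadd45b was not past the threshold without WT4 (1.03). With the replicate block 2004 genes, 6 of the 8 and 18 pathway genes passed, and same-numbered libraries correlated best with each other for numbers 1 and 4 but not 2 and 3. No difference of the 8 genes changed sign in any setting run. The count tests listed beforehand, edgeR and DESeq2, were not run, since the values are not whole reads. Depth limits Gadd45g most, and the sex of the donors and the genotype cannot be told apart.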
